A study of Raphanus sativus with 8 samples.

Results

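The effect of gibberellic acid (GA) within the late-bolting radish inbred line NH-JS1 was taken from 4 of the 8 RNA-seq libraries of the series, the 2 libraries of NH-JS1_GA and the 2 libraries of NH-JS1. The 4-day-old seedlings of every group had been vernalized for 10 days and grown for a further 14 days. NH-JS1_GA plants were then sprayed with 10 mM GA and NH-JS1 plants were not, and shoots of both groups were sampled 6 days later. The labels give the stage of NH-JS1_GA as bolting and that of NH-JS1 as vegetative growth, and the files hold no measure of bolting, so that whether the sampled plants had bolted cannot be read from them. The other 4 libraries, of the early-bolting line NH-JS2 with GA (NH-JS2_GA) and without GA (NH-JS2), had the same vernalization and timing, and are used here where the effect in NH-JS1 is set against another line. Each library was a pool of the shoots of 3 plants, so that n = 2 pools a group, and a p-value measures only the spread between such pools. All groups carried the vernalization, so that an effect of GA without cold cannot be read from these data.

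GA acts through a receptor and a set of repressors. When GA binds the receptor GID1, the complex captures a DELLA protein, and the F-box protein SLY1 then marks the DELLA protein for destruction, which releases growth from its repression. In Arabidopsis a cell that senses much GA lowers the synthesis of GA and of its receptor and raises the GA 2-oxidases that inactivate it. GA is best known in rosette plants for elongation of the stem before flowering, in which cell wall enzymes loosen the wall of growing cells, and for its action on the floral integrators SOC1, FT and LFY.

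The counts covered 78395 unigenes, assembled transcript sequences of radish, of which 60161 carried a match to 1 of 17197 Arabidopsis genes. Genes are named by that match, and a unigene without one is named by its own identifier. Many genes had more than 1 unigene, among which the reads of copies alike in sequence may be divided. The total counts were 27627505 and 27927592 in NH-JS1_GA and 34165272 and 30371970 in NH-JS1. Every deposited count was at least 1, so that a unigene without reads stood at 1. Levels are given as scaled counts, which are counts brought to a common library size, in the order replicate 1 and replicate 2. They are not divided by transcript length, so that levels of different genes are not compared.

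Shoot identity was examined with marker genes. Of 4 leaf markers, 2 had unigenes, LHCB1.3 and LHB1B1. These summed to 537600 and 665000 scaled counts in NH-JS1_GA and to 650500 and 586800 in NH-JS1. The 6 root markers had no unigene in the table, so that the presence or absence of root RNA cannot be read from them. Of 9 flower markers, 5 had unigenes, whose sums were 211.3 and 212.4 scaled counts in NH-JS1_GA and 165.9 and 197.2 in NH-JS1, and AP3, PI, SEP2 and SHP1 had none. The phloem markers SUC2 and APL summed to 7713 and 9037 in NH-JS1_GA and to 8456 and 8404 in NH-JS1, and the guard cell markers to 3347 and 2803, against 3281 and 2979. For the 2 of 6 shoot apical meristem markers with a unigene, the sums were 814 and 797.8 in NH-JS1_GA and 838.6 and 907.4 in NH-JS1. The meristem marker sums were thus lower in both NH-JS1_GA libraries and the flower marker sums higher, while leaf, phloem and guard cell sums overlapped. Groups without overlap were also found for 43.4% of all unigenes tested below. With 2 of 6 meristem and 5 of 9 flower markers present, no change in tissue is read from these sums. None of the unigenes of these lists passed the test below. In pooled shoots, fewer cells of a type and less RNA per cell cannot be told apart.

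Few unigenes passed the test of GA in NH-JS1. The quasi-likelihood test of edgeR was applied to the counts of all 8 libraries together, for 65934 unigenes left by a filter on low counts. A differentially expressed gene (DEG), after the study's criteria, had a mean of 500 or more scaled counts in a group, a log2 fold change of 0.6 or more in size and an adjusted p not above 0.01. In NH-JS1 1 unigene rose (0.00152% of those tested) and 1 fell (0.00152%). By the same criteria DESeq2 gave 11 higher and 19 lower, and edgeR gave 0 to 10 DEGs when 1 library was left out, with 0 without NH-JS1 replicate 2 or either NH-JS2_GA library and 10 without NH-JS1_GA replicate 2. At an adjusted p of at most 0.05 alone, 26 unigenes rose (0.0394%) and 28 fell (0.0425%). In all 54 the libraries of NH-JS1_GA did not overlap those of NH-JS1, which was also true of 43.4% of all unigenes tested. An unadjusted p under 0.05, called nominal below, was reached by 2125 unigenes that were higher (3.22%) and 3135 that were lower (4.75%), and the median log2 fold change of all unigenes tested was 0.00. The number past an adjusted p of 0.05 was 32 without NH-JS1 replicate 1, 12 without NH-JS1 replicate 2, 142 without NH-JS1_GA replicate 1, of which 125 were higher and 17 lower, and 31 without NH-JS1_GA replicate 2, and it was 30 and 29 without replicates 1 and 2 of NH-JS2_GA. DESeq2 called 58 higher (0.088%) and 92 lower (0.14%), among them 51 of the 54. Where a library of NH-JS1_GA or NH-JS1 is left out, 1 library remains in that group and is assumed to vary like those of the other groups.

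**Figure D1:**
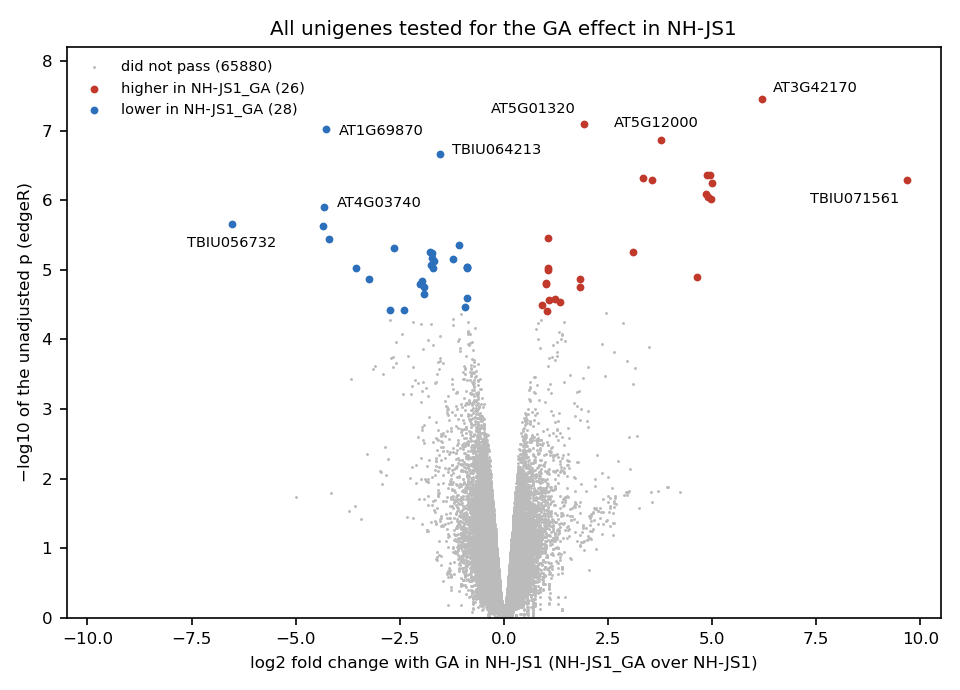
Each point is 1 of the unigenes tested, by its log2 fold change of NH-JS1_GA over NH-JS1 (horizontal axis) and the −log10 of its unadjusted p from edgeR (vertical axis). The 26 red points rose and the 28 blue points fell at an adjusted p of at most 0.05, with TBIU071561 at 9.69 on the right and TBIU056732 at −6.54 on the left.

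The 26 unigenes that rose stood for 11 Arabidopsis genes and 10 unmatched unigenes, and the 28 that fell for 13 Arabidopsis genes and 7 unmatched unigenes. Grouped by shared match or neighbouring identifiers, which may be isoforms or alleles of 1 locus, they came to 15 groups higher and 17 lower. In 13 of the 26 the mean of NH-JS1 was under 10 scaled counts, and in 7 of the 28 the mean of NH-JS1_GA was under 10. Log2 fold changes ran from 0.91 to 9.69 with a median of 2.51 among those that rose, and the median was −1.84 among those that fell. When counts were summed over all unigenes with the same Arabidopsis match, 2 genes passed an adjusted p of 0.05 by edgeR, AT5G01320 and AT5G12000, each of which had 1 unigene.

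The unigenes with the largest rises lay at or near 1 read in NH-JS1 and were well covered in NH-JS1_GA. TBIU071561, the DEG that rose, had 1152 and 491.2 scaled counts in NH-JS1_GA and 0.834 and 0.913 in NH-JS1, the scaled values of 1 count. Set against a floor of 3 counts per library, it was at least 314-fold higher, and the fitted log2 fold change was 9.69, with a standard error (SE) of 0.743 (adjusted p = 0.00339 from edgeR). Without either NH-JS1 library its call was lost at fitted values of 9.62 and 9.74. In NH-JS2 it was expressed both with GA, at 923.1 and 1026 scaled counts, and without it, at 1107 and 705.8.

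TBIU051987, 1 of 98 unigenes matched to AT3G42170, showed the same form. AT3G42170 encodes a protein with a BED zinc finger and the dimerisation domain of hAT transposases. The unigene had 80.1 and 67.5 scaled counts in NH-JS1_GA and 0.834 and 0.913 in NH-JS1, which made it at least 28.2-fold higher against the floor, and its fitted log2 fold change was 6.21 (SE 0.346, adjusted p = 0.00206 from edgeR). The other unigenes of AT3G42170 that were tested had log2 fold changes from −0.54 to 0.87 and did not pass. Of the 86 tested, the called one included, 11 were nominally higher and 0 lower, where 3.22% and 4.75% of all unigenes were. Reads may be divided among these copies, so that they are not 86 separate observations. Summed over all copies the change was 0.12 (adjusted p = 0.787 from edgeR).

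TBIU025707 of AT5G12000, a protein kinase with an adenine nucleotide alpha hydrolase-like domain, had 86.1 and 107.2 scaled counts in NH-JS1_GA against 8.34 and 5.48 in NH-JS1. It rose by 3.77 on the log2 scale (SE 0.247, adjusted p = 0.00225 from edgeR) and is the sole unigene of that gene. TBIU043319 was 1 of 249 unigenes matched to AT4G23160, which is described as the cysteine-rich receptor-like kinase CRK8. A match shared by so many unigenes does not show that TBIU043319 is CRK8. This unigene had 118.1 and 85.3 scaled counts in NH-JS1_GA and 29.2 and 27.4 in NH-JS1 (1.84, adjusted p = 0.0266 from edgeR). TBIU043334 of the receptor-like protein RLP24 (AT2G33020) had 243.3 and 235.2 against 106.7 and 96.8 (1.23, adjusted p = 0.037 from edgeR). Of the 137 tested unigenes matched to AT4G23160, 4 were nominally higher and 14 lower, and of the 9 matched to AT2G33020, 3 were higher and 1 lower. Over all unigenes tested, 3.22% were nominally higher and 4.75% lower. The summed log2 fold changes were −0.16 for AT4G23160 and 0.03 for AT2G33020, and neither sum passed. The call of TBIU043319 was lost without either NH-JS1 or either NH-JS2_GA library and with DESeq2, within a range of 1.58 to 2.05. That of TBIU043334 was lost without any 1 library of NH-JS1, NH-JS1_GA or NH-JS2_GA, at values of 1.16 and above.

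TBIU011131, the sole unigene of AT5G01320 in the pyruvate decarboxylase family, which opens the route from pyruvate to ethanol, had 247.3 and 242.1 scaled counts in NH-JS1_GA and 67.5 and 61.2 in NH-JS1. The change was 1.92 on the log2 scale (SE 0.118, adjusted p = 0.00206 from edgeR). The call of AT5G01320, like those of TBIU051987 and AT5G12000, was kept without any 1 library, within 1.85 to 1.99 for AT5G01320. Of the 54, 5 kept their call in this way, 4 that rose and 1 that fell, in fits that take the spread of a lone library from the other groups.

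TBIU025193 of AT1G74150, a kelch repeat protein, had 58.1 and 85.3 scaled counts in NH-JS1_GA and 2.50 and 1.83 in NH-JS1. With 1 subtracted from each count, 3 counts were left in NH-JS1, and the ratio was 54.1 with a 95% exact Poisson interval from 18.2 to 266, which covers counting error only. The fitted log2 fold change was 4.96 (adjusted p = 0.00339 from edgeR), and it lost its call without NH-JS1 replicate 2 (4.77). The 5 unmatched unigenes with the identifiers next to it moved with it, by 4.85 to 5.01, the highest of them TBIU025189, which also lost its call without NH-JS1 replicate 2 (4.82), as did the other 4, of which 3 also lost it without NH-JS1 replicate 1. The other 9 unigenes of AT1G74150 did not pass, at −0.40 to 0.39.

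The smallest rises, at about 1 on the log2 scale, included copies of 3 genes. All 6 unigenes of AT3G45100 (SETH2), an enzyme of glycosylphosphatidylinositol anchor synthesis, were higher, and 5 passed, with log2 fold changes from 0.91 to 1.07. The most abundant, TBIU062632, had 459.6 and 470.4 scaled counts in NH-JS1_GA and 203.4 and 239.2 in NH-JS1 (adjusted p = 0.0191 from edgeR). TBIU010212 of RANGAP2 (AT5G19320), which activates the GTPase Ran in transport through the nuclear envelope, had 496.6 and 469.4 against 237.6 and 226.4 (1.06, adjusted p = 0.0124 from edgeR), and the other unigene of RANGAP2 had 0.15. A pair of unigenes of the peptidyl-tRNA hydrolase AT5G16870 rose by 1.04 and 1.09 (adjusted p = 0.0483 and 0.0372 from edgeR), and the other 3 had 0.68 to 0.88. RANGAP2 lost its call without NH-JS1 replicate 1 (1.08) or replicate 2 (1.02) and without NH-JS1_GA replicate 2. The unigenes of AT3G45100 lost theirs without any 1 library of NH-JS1, NH-JS1_GA or NH-JS2_GA (0.80 to 1.19), as did those of AT5G16870 (0.93 to 1.19), 1 of which also lost it without either NH-JS2 library.

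**Figure D2:**
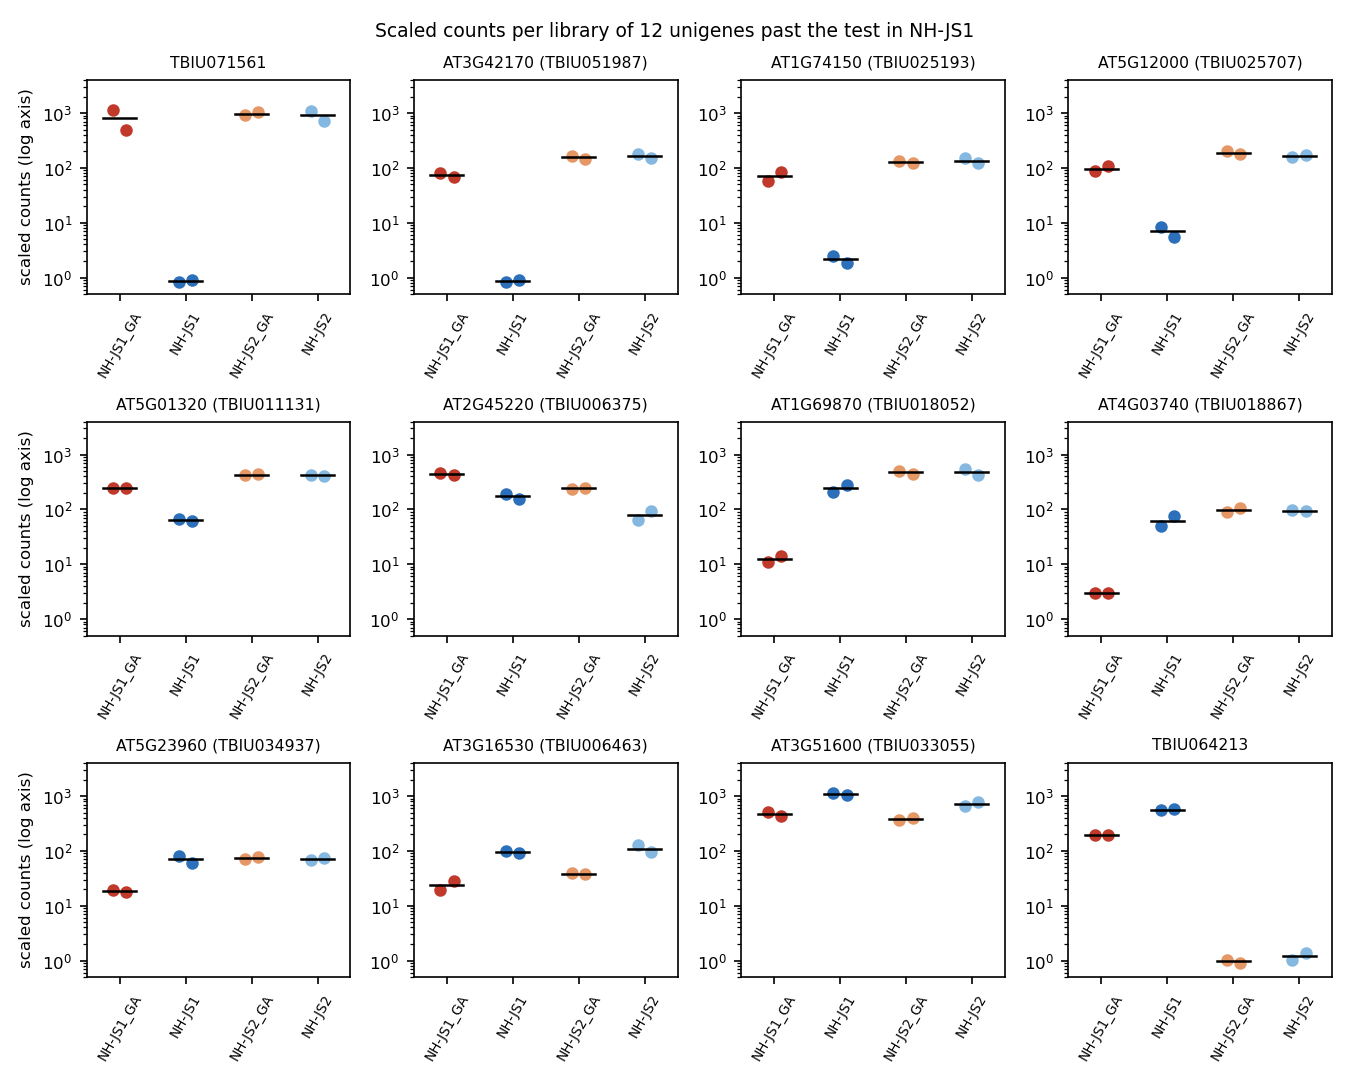
Scaled counts (vertical log axis) of 12 unigenes that passed the test in NH-JS1, in the 2 libraries (points) of each group, with the group mean as a line. TBIU071561 and TBIU051987 stand at 1 count in NH-JS1 only, whereas AT2G45220 passed the test in both lines, AT3G16530 and AT3G51600 passed it in NH-JS1 alone at the adjusted p used, and TBIU064213 stands near 1 count in NH-JS2.

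Of the unigenes that fell, 1 kept its call without any single library, a copy of NRT1.7. NRT1.7 (AT1G69870) loads nitrate into the phloem of old leaves in Arabidopsis, from where it is moved to young ones. Its unigene TBIU018052 had 11.01 and 13.89 scaled counts in NH-JS1_GA against 204.2 and 280.2 in NH-JS1, or −4.27 on the log2 scale (SE 0.267, adjusted p = 0.00206 from edgeR). TBIU049502 had 137.2 and 96.3 in NH-JS1_GA and 538.5 and 910.1 in NH-JS1 (−2.63, adjusted p = 0.0152 from edgeR), and lost its call without NH-JS1_GA replicate 2 (−2.40). The other 5 of the 7 unigenes did not pass, at −0.26 to −1.35. Summed over the 7, NRT1.7 had 939.7 and 566.6 scaled counts in NH-JS1_GA and 1642 and 2456 in NH-JS1, groups that did not overlap (−1.44, adjusted p = 0.2 from edgeR). NH-JS2 held both unigenes at levels that did not move with GA, at 502 and 446.9 in NH-JS2_GA and 536 and 418 in NH-JS2 for TBIU018052.

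Other genes with more than 1 copy fell in part. A pair of unigenes of the legume lectin AT3G16530 had 19.02 and 27.79 scaled counts (TBIU006463) and 24.0 and 36.7 (TBIU011885) in NH-JS1_GA, against 98.4 and 90.4 and against 121.7 and 115 in NH-JS1. Their log2 fold changes were −2.01 and −1.96 (adjusted p = 0.0251 and 0.0246 from edgeR), and the other 3 unigenes of AT3G16530 had −1.55 to −1.95 without passing. TBIU033055 of the lipid transfer protein LTP5 (AT3G51600), a small secreted protein that binds lipids, had 514.6 and 430.7 in NH-JS1_GA and 1139 and 1050 in NH-JS1 (−1.21, SE 0.128, adjusted p = 0.0176 from edgeR). Its other 3 unigenes had −0.58 to −1.06. TBIU034937 of TPS21 (AT5G23960), a sesquiterpene synthase of Arabidopsis flowers, had 19.02 and 17.86 against 80.0 and 59.3 (−1.91, adjusted p = 0.0266 from edgeR). The 3 others had −1.23 to −1.64 and did not pass. The calls of AT3G16530 and TPS21 were lost without any 1 library of NH-JS1, NH-JS1_GA or NH-JS2_GA (−2.31 to −1.70 and −2.11 to −1.69), and that of LTP5 without NH-JS1 replicates 1 and 2, NH-JS1_GA replicate 2 and both NH-JS2_GA replicates (−1.27 to −1.09).

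Other matched unigenes fell that had low or moderate levels in NH-JS1. TBIU018867 of AT4G03740, which the table does not describe, had 3.004 and 2.977 scaled counts in NH-JS1_GA and 49.2 and 74.8 in NH-JS1 (−4.31, adjusted p = 0.0055 from edgeR), and lost its call without NH-JS1_GA replicate 2. Of its 19 tested unigenes, the other 18 ran from −0.68 to 3.94 without passing, and the sum gave −0.21 (adjusted p = 0.686 from edgeR). TBIU044500, the F-box protein gene AT3G60790, had 4.005 and 10.92 against 72.5 and 70.3 (−3.24, adjusted p = 0.0239 from edgeR). TBIU061492 of AT1G21280 had 3.004 and 3.969 against 51.7 and 31.9 (−3.54, adjusted p = 0.0186 from edgeR), and TBIU054261 of the receptor-like protein RLP15 (AT1G74190) 9.01 and 8.93 against 37.5 and 58.4 (−2.40, adjusted p = 0.0475 from edgeR). The other unigenes of AT1G21280 had −0.55 to 0.84 and those of RLP15 −2.44 to 0.85, none of which passed. Each of these 3 lost its call when single libraries were left out, and RLP15 also with DESeq2 (−2.42). Without 1 library, the values of AT3G60790 ran from −4.12 to −2.71, those of AT1G21280 from −3.84 to −3.16 and those of RLP15 from −2.70 to −2.05. RLP15 lost its call when any 1 of the 8 libraries was left out, AT3G60790 when any 1 of NH-JS1, NH-JS1_GA or NH-JS2_GA was, and AT1G21280 when NH-JS1 replicate 1 or any 1 of NH-JS1_GA or NH-JS2_GA was.

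A block of neighbouring identifiers fell together. TBIU058773 of the transcription factor BZIP25 (AT3G54620) had 53.1 and 60.5 scaled counts in NH-JS1_GA and 203.4 and 225.5 in NH-JS1 (−1.91, adjusted p = 0.0325 from edgeR). The 4 unigenes of AT1G14800 and the 2 of AT2G05642 with identifiers close to it, both of nucleic acid-binding OB-fold proteins, fell, with log2 fold changes from −1.77 to −1.67. For TBIU058774 the values were 53.1 and 45.6 in NH-JS1_GA and 169.2 and 157 in NH-JS1 (−1.72, adjusted p = 0.0156 from edgeR). In contrast, TBIU019114 of AT1G14800 rose, at 26.0 and 27.8 scaled counts in NH-JS1_GA against 2.50 and 3.65 in NH-JS1 (3.09, adjusted p = 0.0156 from edgeR). The summed counts of the 323 unigenes of AT1G14800 gave 0.01. The other 4 of the 5 tested unigenes of BZIP25 had 0.07 to 0.35, so that a summed value of −0.17 (adjusted p = 0.766 from edgeR) was found for BZIP25. Each of these unigenes lost its call without NH-JS1 replicate 1, NH-JS1 replicate 2 or NH-JS1_GA replicate 2, within −2.01 to −1.57 for those that fell and 2.83 to 3.36 for TBIU019114. BZIP25 and TBIU058776 lost theirs without NH-JS1_GA replicate 1 as well, and TBIU019114 without NH-JS2_GA replicate 2.

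IMPA-9 (AT5G03070), an importin alpha family member, had 3 unigenes that fell, each with −0.89 on the log2 scale, and was chosen after its values were seen. TBIU031435 had 646.8 and 659.9 scaled counts in NH-JS1_GA and 1147 and 1271 in NH-JS1 (SE 0.0971, adjusted p = 0.0186 from edgeR). The other 7 unigenes of IMPA-9 did not pass, at −0.64 to −0.08. NH-JS2 libraries held TBIU031435 at a lower level, at 151.6 and 145.6 in NH-JS2_GA and 144 and 150.7 in NH-JS2. All 3 calls were lost without any 1 library of NH-JS1, NH-JS1_GA or NH-JS2_GA (−0.98 to −0.81).

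Among the unmatched unigenes, TBIU064213 was the DEG that fell. It had 195.2 and 194.5 scaled counts in NH-JS1_GA and 561 and 572.3 in NH-JS1 (−1.54, SE 0.106, adjusted p = 0.00284 from edgeR), and lost its call without NH-JS1 replicate 2 (−1.53). In NH-JS2_GA and NH-JS2 it stood at 1 or close to it in every library. TBIU056732 had 4.005 and 2.977 in NH-JS1_GA and 193.4 and 478.3 in NH-JS1 (−6.54, SE 0.599, adjusted p = 0.00917 from edgeR), whereas NH-JS2_GA had 133.2 and 131.9 and NH-JS2 127.6 and 98.7. It lost its call without NH-JS1_GA replicate 2 (−6.35). Of the 28 that fell, 8 had a mean under 2 scaled counts over the 4 NH-JS2 libraries, and of the 26 that rose 1 did, while 1.63% of all unigenes tested lay under that level.

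The question whether the response was particular to NH-JS1 was put by a test of the interaction of GA and line. It passed an adjusted p of 0.05 by edgeR for 39 unigenes (0.0592%), among them 13 of the 26 that rose in NH-JS1 and 3 of the 28 that fell. The number was 62 with DESeq2, 4 with counts summed per Arabidopsis gene and 22 without NH-JS1 replicate 2. The difference contains the NH-JS1 effect by which the called unigenes were selected, so that some overlap with the 39 was built in. As 8 of the 28 that fell were under 2 scaled counts on average in NH-JS2, the other line gives little to compare them with. The difference, as NH-JS1 minus NH-JS2, was 6.29 for TBIU051987 of AT3G42170 (adjusted p = 0.000556 from edgeR), 3.55 for AT5G12000 (adjusted p = 0.00367), 1.87 for AT5G01320 (adjusted p = 0.00343) and −4.25 for TBIU018052 of NRT1.7 (adjusted p = 0.00203). In NH-JS2 these 4 had log2 fold changes of −0.08, 0.22, 0.05 and −0.01. Each was expressed in NH-JS2_GA and NH-JS2. AT5G01320, for example, had 419 and 442.3 scaled counts in NH-JS2_GA and 421.8 and 409.8 in NH-JS2, and AT5G12000 had 198.8 and 180.4 in NH-JS2_GA and 157.4 and 168.6 in NH-JS2. For the other called unigenes the difference did not pass, which does not show that the lines responded alike.

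The same 54 unigenes were then read in NH-JS2. At an unadjusted p under 0.05 in NH-JS2, by which 3.74% of all unigenes tested were higher and 5.03% lower, 5 of the 54 lay in the same direction as in NH-JS1 and 0 in the opposite direction. The NH-JS1 and NH-JS2 effects share no library, but their p-values rest on 1 estimate of spread from all 8 libraries and are not independent. The 5 include the 2 called unigenes of AT3G16530. TBIU006375 of AT2G45220, a pectin methylesterase that removes methyl groups from cell wall pectin, had 465.6 and 417.8 scaled counts in NH-JS1_GA and 192.6 and 151.5 in NH-JS1, and 233.6 and 248.2 in NH-JS2_GA and 62.8 and 91.8 in NH-JS2. In NH-JS1 this was 1.36 on the log2 scale (SE 0.171, adjusted p = 0.0388 from edgeR). NH-JS2 gave 1.66 (SE 0.195, adjusted p = 0.0306 from edgeR). The call in NH-JS1 was lost without any 1 library of NH-JS1, NH-JS1_GA or NH-JS2_GA (1.19 to 1.53) and with the replicate number as a block (1.36). The lectin AT3G16530 had 38.9 and 37.5 in NH-JS2_GA and 125.5 and 94.6 in NH-JS2 for TBIU006463, or −1.53 on the log2 scale (adjusted p = 0.0835 from edgeR), and LTP5 366.8 and 399.2 against 653.3 and 762 (−0.88, adjusted p = 0.0914 from edgeR). The fifth was AT1G51400, the 5 kD protein of photosystem II, which was chosen after its values were seen, with 118.1 and 138.9 in NH-JS1_GA and 235.9 and 259.2 in NH-JS1 (−0.94, adjusted p = 0.0441 from edgeR). It had 1217 and 1200 in NH-JS2_GA and 1467 and 1557 in NH-JS2, or −0.32 (adjusted p = 0.503 from edgeR). It lost its call in NH-JS1 without any 1 library of NH-JS1, NH-JS1_GA or NH-JS2_GA (−1.07 to −0.84).

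**Figure D3:**
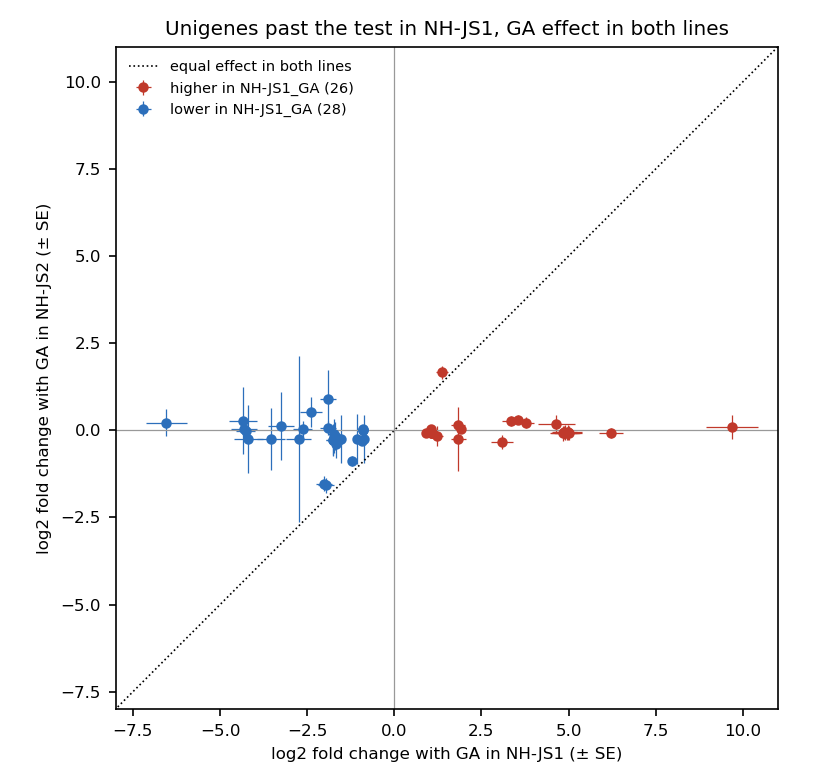
Log2 fold change with GA in NH-JS1 (horizontal axis) and in NH-JS2 (vertical axis) of the 54 unigenes that passed in NH-JS1, with standard errors as bars. Most points lie along 0 for NH-JS2, and AT2G45220 (1.36 and 1.66) and AT3G16530 (−2.01 and −1.53) lie near the dotted line of equal effects.

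DESeq2 called 99 unigenes that edgeR did not, 33 higher and 66 lower. Of its 150 calls, 43 had the same direction in NH-JS2 and 2 the opposite one, where edgeR gave an unadjusted p under 0.05. By that measure, 3.74% of all unigenes tested rose in NH-JS2 and 5.03% fell. The 150 include copies of the same gene, such as 6 of AT3G45100 and 4 of AT3G16530, and are not 150 separate observations. The genes named in what follows on DESeq2 were picked after their values were seen. All 5 unigenes of XTH24 (AT4G30270), an enzyme that cuts and rejoins the xyloglucan of growing cell walls, were higher by DESeq2. The most abundant, TBIU040476, had 10960 and 13170 scaled counts in NH-JS1_GA and 7399 and 7017 in NH-JS1, and edgeR gave 0.74 (SE 0.142, adjusted p = 0.191) where DESeq2 gave an adjusted p of 0.000169. In NH-JS2 its log2 fold change was 0.63. The pectin methylesterase PME61 (AT3G59010) had 2471 and 2367 against 1543 and 1325 (0.75, adjusted p = 0.247 from edgeR and 0.00428 from DESeq2). The 3 unigenes of the pectin acetylesterase AT4G19420 each had 0.63 (adjusted p from 0.293 to 0.312 from edgeR), with 1625 and 1928 against 1203 and 1096 for TBIU011394. In each of these the libraries of NH-JS1_GA lay above those of NH-JS1, where 43.4% of all unigenes had groups that did not overlap.

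Single genes that were lower by DESeq2 included these. VSP2, a vegetative storage protein induced by jasmonate in Arabidopsis, had 933.1 and 783 scaled counts in NH-JS1_GA and 1480 and 2419 in NH-JS1 (−1.18, adjusted p = 0.272 from edgeR and 0.000283 from DESeq2). CORI3, a tyrosine transaminase family protein that is also induced by jasmonate, had 157.2 and 81.4 against 301.8 and 322.2 for TBIU062104 (−1.39, adjusted p = 0.235 from edgeR and 0.000856 from DESeq2). PR4 (AT3G04720), a pathogenesis-related protein, had 255.3 and 479.3 against 949.5 and 903.7 (−1.33, adjusted p = 0.247 from edgeR and 0.000101 from DESeq2). In NH-JS2 the log2 fold changes of these 3 were −1.46, −2.17 and −1.61. A protease inhibitor of the Kunitz family, AT1G72290, had 930.1 and 954.6 against 2288 and 2173 for TBIU035981 (−1.24, adjusted p = 0.165 from edgeR and 3.71e-06 from DESeq2). Its 14 unigenes ranged from −1.96 to 0.22, and their sum gave −0.46 (adjusted p = 0.685 from edgeR). In contrast, 4 of 11 unigenes of thionin 2.2 (AT5G36910), an antimicrobial peptide, were higher by DESeq2, with 537.7 and 380.1 against 223.4 and 178.9 for TBIU050527 (1.19, adjusted p = 0.0852 from edgeR and 0.000111 from DESeq2), and −0.14 in NH-JS2. The 11 unigenes ranged from −0.14 to 1.19 in NH-JS1, and their sum gave 0.46 (adjusted p = 0.507 from edgeR).

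The genes of GA metabolism and perception did not pass the test in NH-JS1. Of the GA biosynthesis genes, 6 of 14 had unigenes, and of 13 unigenes tested 0 were called and 0 had a nominal p (median log2 fold change −0.15, against 0.00 for all unigenes). GA20ox3 (TBIU052309), which makes the precursors of active GA, had 50.1 and 65.5 scaled counts in NH-JS1_GA and 68.4 and 69.4 in NH-JS1 (−0.25, SE 0.509). KAO2, which acts earlier in the pathway, had 43.0 and 51.6 against 57.5 and 63.9 (−0.36, SE 0.316). Of 11 genes of GA-inactivating enzymes 2 had unigenes, GA2ox2 and GA2ox6. Of their 6 unigenes tested 3, all of GA2ox2, were nominally higher (50%, against 3.22% of all unigenes), and the median was 0.90. The 3 unigenes of GA2ox6 had 0.94 to 1.17, and 0 of them were nominally higher. The most abundant unigene of GA2ox2, TBIU037959, had 215.3 and 231.2 in NH-JS1_GA and 120 and 124.1 in NH-JS1, without overlap (0.87, SE 0.216, adjusted p = 0.384 from edgeR), and 0.83 in NH-JS2.

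Of the 25 unigenes of receptors, DELLA repressors and their partners 0 were called, by edgeR or by DESeq2. Nominally, 10 were lower (40%, against 4.75% of all unigenes) and 3 higher (12%, against 3.22%). The 10 came from few genes, as 4 were copies of SCL3, 3 of GID1B, 2 of GID1A and 1 of SLY1. GID1A (TBIU064472) had 193.2 and 173.7 scaled counts in NH-JS1_GA and 270.9 and 299.4 in NH-JS1 (−0.64, SE 0.196, adjusted p = 0.496 from edgeR). GID1B (TBIU012993) had 41.05 and 35.72 against 59.2 and 84.9 (−0.90, adjusted p = 0.47 from edgeR). SLY1, which targets DELLA proteins, had 489.6 and 473.3 against 651.1 and 703.8 (−0.49, SE 0.106, adjusted p = 0.284 from edgeR). SCL3, which acts against DELLA proteins in Arabidopsis, had 109.1 and 96.3 against 155.1 and 151.5 (−0.58, adjusted p = 0.361 from edgeR). Of the DELLA genes, RGL2 had 677.8 and 582.5 in NH-JS1_GA and 485.2 and 450.9 in NH-JS1 (0.43, adjusted p = 0.47 from edgeR) and RGA (TBIU046318) 2668 and 2385 against 1937 and 2102 (0.32, adjusted p = 0.567 from edgeR). In each of these 6 the groups did not overlap, as in 43.4% of all unigenes. The log2 fold changes in NH-JS2 were −0.79 for GID1A, −0.39 for SLY1, −0.62 for SCL3, 0.50 for RGL2 and 0.15 for RGA. The values of GID1B and RGA were known when they were chosen.

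The GASA genes encode small cysteine-rich peptides, several of them induced by GA in Arabidopsis, and of 10 unigenes 2 were higher (20%) and 1 lower (10%) nominally, against 3.22% and 4.75% of all unigenes, with 0 called. GASA14 (TBIU016217) had 602.7 and 552.7 scaled counts in NH-JS1_GA and 386.8 and 358.7 in NH-JS1 (0.63, SE 0.152, adjusted p = 0.371 from edgeR). GASA4 (TBIU033481) had 1146 and 1440 against 1136 and 753.1 (0.45, SE 0.19). GASA5 had 8.01 and 9.92 against 31.7 and 31.0 (−1.79, SE 0.385, adjusted p = 0.279 from edgeR), and 0.39 in NH-JS2. GASA6, at 1141 and 1269 against 1471 and 1241 (−0.17), and the expansin EXPA1, at 1086 and 1034 against 834.5 and 821.6 (0.36, adjusted p = 0.788 from edgeR), are genes that the study names.

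**Figure D4:**
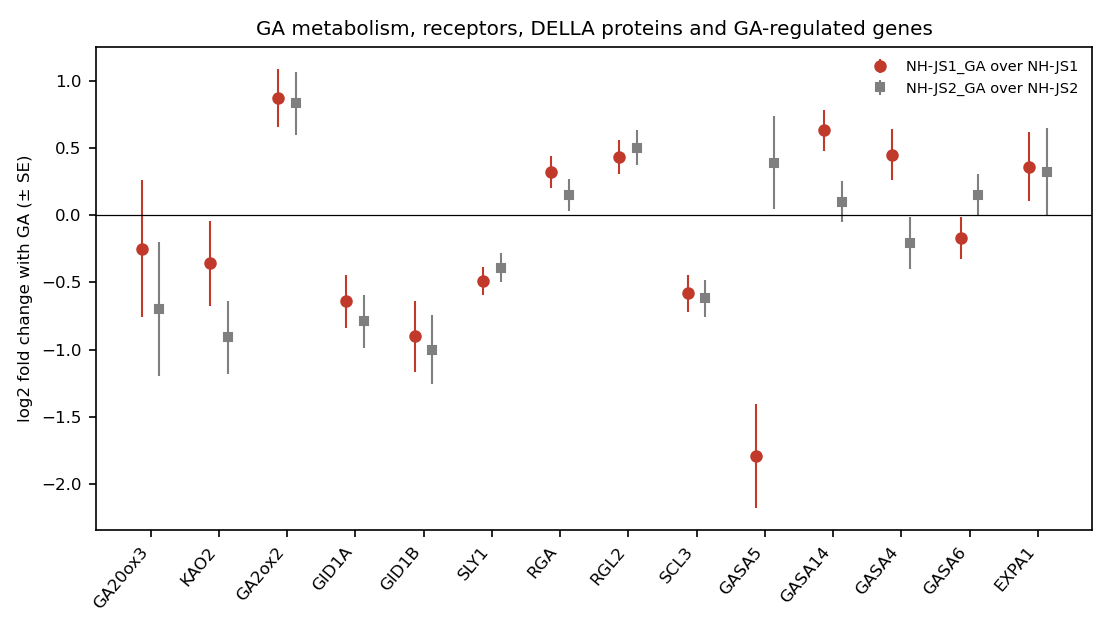
Log2 fold change with GA (vertical axis, bars are standard errors) of 14 genes of GA metabolism, perception and response, 1 unigene each, in NH-JS1 (red circles) and NH-JS2 (grey squares). GA2ox2 is above 0 in both lines (0.87 and 0.83) and GID1A below it (−0.64 and −0.79), and none of the NH-JS1 values passed an adjusted p of 0.05.

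The genes that decide flowering time had no called unigene. Of 11 floral integrators 6 had unigenes, and the others could not be read. Of the 25 unigenes tested 0 were called, 0 were nominally higher and 1 was nominally lower (4%, against 4.75% of all). The median was 0.00. FT, the mobile signal of flowering, was close to 1 count in all NH-JS1 libraries, with 2.00 and 0.992 scaled counts in NH-JS1_GA and 1.67 and 2.74 in NH-JS1. SOC1 (TBIU065173), a MADS-box integrator of GA and cold signals, had 346.4 and 271.9 in NH-JS1_GA and 247.6 and 304 in NH-JS1, groups that overlapped (0.17, SE 0.263, adjusted p = 0.929 from edgeR). The 1 low unigene was TBIU030174 of FD, the partner of FT, at 31.0 and 24.8 against 42.5 and 40.2 (−0.57, adjusted p = 0.593 from edgeR). CO, an activator of FT in long days, had 13.02 and 5.954 against 6.67 and 4.56, which overlapped.

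In the vernalization pathway 0 of 71 unigenes were called, and 5 were lower (7.04%, against 4.75% of all) and 0 higher nominally. FLC, the repressor of flowering that cold silences, was present in every library. Its most abundant unigene TBIU004737 had 1606 and 1775 scaled counts in NH-JS1_GA and 1858 and 1528 in NH-JS1 (0.00 after rounding, SE 0.138). TBIU055229 had 461.6 and 503.1 against 527.7 and 880.9 (−0.54, adjusted p = 0.607 from edgeR), and the 8 unigenes summed to 5662 and 5995 against 6599 and 6761 (−0.20, adjusted p = 0.685 from edgeR). LHP1 (TBIU003331), which keeps silenced genes such as FLC off, had 166.2 and 198.5 against 256.8 and 276.6 (−0.55, SE 0.124, adjusted p = 0.325 from edgeR). AGL19 (TBIU033103), an activator of flowering in the cold, had 275.3 and 267.9 against 316.8 and 283 (−0.14), and VRN1 351.4 and 383 against 323.5 and 346.9 (0.13).

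The clock, light and ageing pathways also had 0 called unigenes. Of 119 unigenes of photoperiod and clock genes 1 was nominally lower, TBIU060271 of the clock component ELF3, with 420.5 and 447.5 scaled counts in NH-JS1_GA and 583.6 and 548.6 in NH-JS1 (−0.38, adjusted p = 0.564 from edgeR). GI was at 1726 and 1279 against 1401 and 1300 (0.15), LHY at 642.8 and 578.5 against 564.4 and 700.1 (−0.05) and PIF4 at 2336 and 2569 against 2382 and 2316 (0.06). In the ageing pathway 11 of 66 unigenes were nominally lower (16.7%, against 4.75% of all) and 4 higher (6.06%, against 3.22% of all). The AP2-type repressor TOE3 had 105.1 and 93.3 against 152.6 and 163.4 (−0.67, SE 0.145, adjusted p = 0.285 from edgeR), and SPL9 (TBIU040690), a promoter of the adult phase, 215.3 and 157.8 against 265.1 and 258.3 (−0.49, adjusted p = 0.532 from edgeR). The flowering repressor TEM1 had 69.1 and 138.9 against 99.2 and 119.6, groups that overlapped. The GATA factor GNC, which promotes greening, had 423.5 and 428.7 against 398.5 and 457.3 (−0.01).

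Cell wall genes are set here against the 3.22% of all unigenes that were nominally higher. Of 43 unigenes of xyloglucan endotransglucosylases 11 were higher (25.6%) and 0 lower, with 5 past DESeq2's test and 0 past edgeR's, and the median was 0.35. The 5 unigenes of XTH24 were among the 11 and were the 5 past DESeq2's test. Of 242 unigenes of pectin enzymes 24 were higher (9.92%) and 9 lower, with 1 called, AT2G45220, by edgeR and 6 by DESeq2. The 1 call became 0 without any single library of NH-JS1, NH-JS1_GA or NH-JS2_GA. Expansins, which loosen the wall, had 6 of 56 higher and 2 lower, led by TBIU064518 of EXLA1 (AT3G45970) at 172.2 and 127 scaled counts in NH-JS1_GA against 85.03 and 104.1 in NH-JS1 (0.66, adjusted p = 0.441 from edgeR). Of 61 unigenes of lignin and the secondary wall 1 was higher and 1 lower. The lists are described by counts, and no test of a list was run. In every list, unigenes of 1 gene count separately, though they are not independent of each other.

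Secreted and defence proteins are set against the 4.75% of all unigenes that were nominally lower. For lipid transfer proteins 14 of 70 unigenes were lower (20%) and 1 higher, with 1 called, LTP5. For lectins 16 of 237 were lower and 2 higher, with 2 called, both of AT3G16530. DESeq2 called 3 lipid transfer protein unigenes, all of LTP5, and 4 lectin unigenes, all of AT3G16530. Protease inhibitors had 9 of 37 lower and 1 higher with 0 called by edgeR and 4 by DESeq2, defence and salicylic acid genes 16 of 87 lower and 2 higher with 0 called by edgeR or by DESeq2, and jasmonate genes 5 of 64 lower and 1 higher with 0 called by edgeR and 3 by DESeq2. Of the 16 defence and salicylic acid unigenes that were lower, 6 were of PR2 and 4 of PBS3. TBIU065567 of the pathogenesis-related glucanase PR2 had 299.4 and 629.1 scaled counts in NH-JS1_GA and 961.2 and 1252 in NH-JS1 (−1.25, SE 0.362, adjusted p = 0.467 from edgeR). PBS3 (TBIU050480), an enzyme of salicylic acid synthesis, had 1076 and 952.6 against 1283 and 1354 (−0.38, adjusted p = 0.447 from edgeR). Peroxidases had 9 of 105 lower and 1 higher. In a fit of the NH-JS1 libraries only, edgeR called 2 protease inhibitor unigenes. The numbers called by edgeR among lipid transfer proteins and lectins became 0 without either NH-JS1 library, NH-JS1_GA replicate 2 or either NH-JS2_GA library, and that of lectins also without NH-JS1_GA replicate 1.

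**Figure D5:**
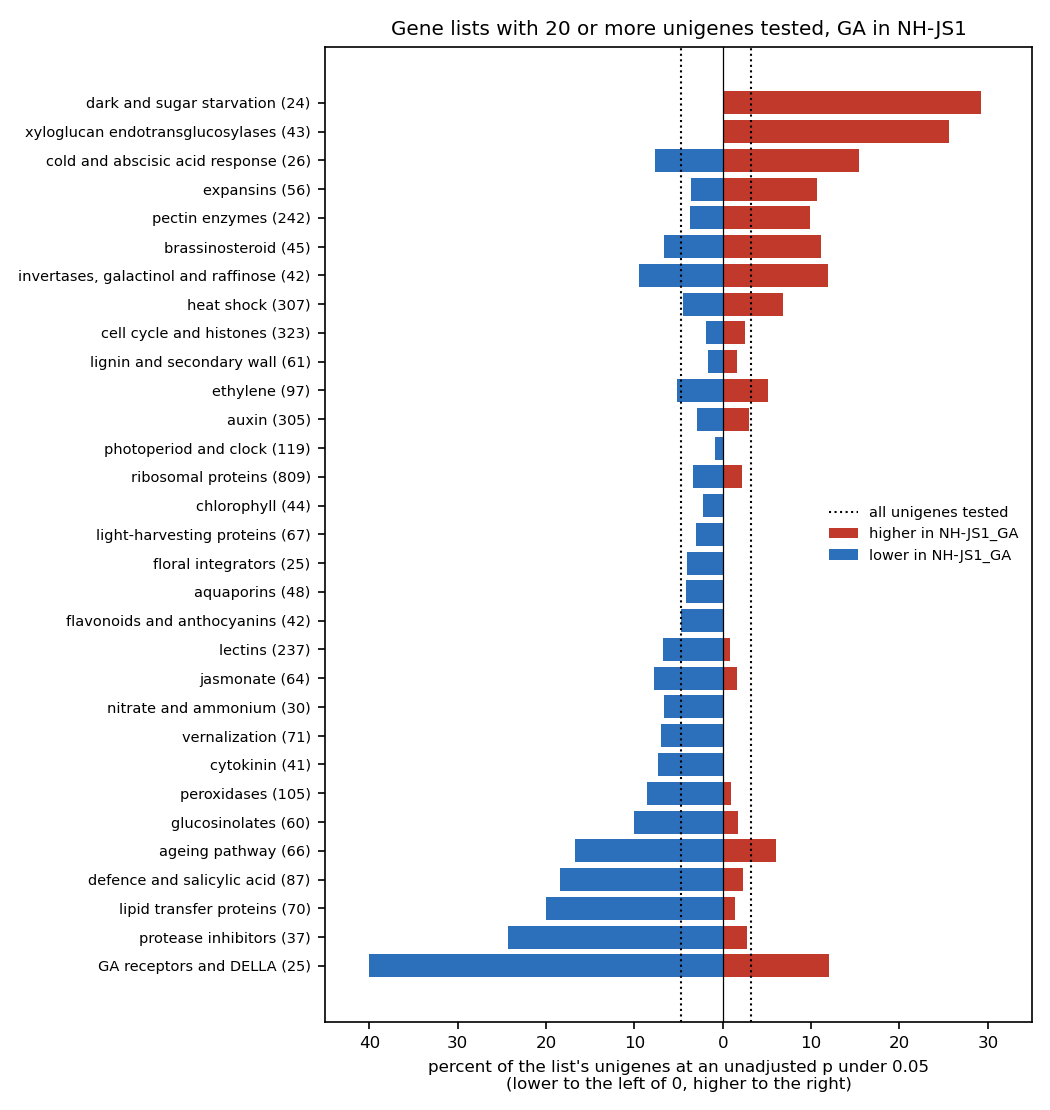
For each gene list with at least 20 unigenes tested (number in brackets), the genes the study names left out, the percent of its unigenes at an unadjusted p under 0.05 by edgeR in NH-JS1, lower in blue to the left of 0 and higher in red to the right. The dotted lines are the same shares of all unigenes tested, 4.75% and 3.22%.

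In sugar metabolism, of 24 unigenes of genes induced by darkness and sugar starvation 7 were nominally higher (29.2%, against 3.22% of all) and 0 lower, with 0 called by edgeR and 2 by DESeq2, and the median was 0.15, against −0.18 in NH-JS2. DIN10, a raffinose synthase family member, had 514.6 and 786.9 scaled counts in NH-JS1_GA and 419.3 and 313.1 in NH-JS1 for TBIU010149 (0.83, SE 0.202, adjusted p = 0.371 from edgeR and 0.0306 from DESeq2). BZIP1 (TBIU049520), a transcription factor of the low-energy response, had 35.04 and 60.53 against 21.7 and 26.5 (0.99, adjusted p = 0.469 from edgeR). In both the groups did not overlap, as in 43.4% of all unigenes. Invertase, galactinol and raffinose genes had 5 of 42 higher (11.9%) and 4 lower (9.52%). The vacuolar invertase VI1 (TBIU016614), which splits sucrose into glucose and fructose, had 651.8 and 496.2 against 875.3 and 824.3 (−0.57, SE 0.147, adjusted p = 0.404 from edgeR), and −1.17 in NH-JS2. The other vacuolar invertase, BETAFRUCT4 (TBIU059114), had 3203 and 4053 against 4134 and 3734 (−0.12, adjusted p = 0.911 from edgeR).

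In secondary metabolism, 6 of 60 unigenes of glucosinolate genes were nominally lower (10%, against 4.75% of all) and 1 higher (1.67%, against 3.22% of all). MYB29 (TBIU044986), an activator of aliphatic glucosinolate synthesis, had 537.7 and 397.9 scaled counts in NH-JS1_GA and 678.6 and 712 in NH-JS1 (−0.57, SE 0.148, adjusted p = 0.404 from edgeR), whereas its relative MYB28 (TBIU017661) had 3929 and 3519 against 3754 and 3824 (−0.02). MYB59 (TBIU028306), which the study also names, had 340.4 and 373.1 against 494.4 and 493.8 (−0.47, SE 0.105, adjusted p = 0.312 from edgeR). Flavonoid and anthocyanin genes had 2 of 42 lower and 0 higher. Cold and abscisic acid genes had 4 of 26 higher (15.4%) and 2 lower (7.69%), and trichome regulators 2 of 14 lower (14.3%) and 0 higher. The abscisic acid synthesis gene NCED3 (TBIU044591) had 231.3 and 198.5 against 94.2 and 144.2 (0.85, adjusted p = 0.478 from edgeR). In the brassinosteroid list 5 of 45 were higher (11.1%) and 3 lower (6.67%), with the growth inhibitor IBH1 (TBIU064503) at 327.4 and 293.7 against 221.7 and 146.1 (0.75, adjusted p = 0.49 from edgeR).

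The remaining lists cover growth, photosynthesis and stress, and their counts stand against 3.22% of all unigenes nominally higher and 4.75% lower. Ribosomal proteins had 18 of 809 unigenes higher and 27 lower nominally in NH-JS1, with a median of 0.02, against 2 higher and 198 lower and a median of −0.25 in NH-JS2. Cell cycle and histone genes had 8 of 323 higher and 6 lower, auxin genes 9 of 305 higher and 9 lower, and ethylene genes 5 of 97 in each direction. Heat shock genes had 21 of 307 higher and 14 lower, with the chaperone AT5G42020 (TBIU033063) at 849 and 824.6 scaled counts in NH-JS1_GA and 664.4 and 607.9 in NH-JS1 (0.40, adjusted p = 0.401 from edgeR). Light-harvesting proteins had 2 of 67 lower and 0 higher, aquaporins 2 of 48 lower and 0 higher, and chlorophyll genes 1 of 44 lower and 0 higher. Cytokinin genes had 3 of 41 lower and 0 higher, all 3 of the response regulator ARR4, and nitrate and ammonium genes 2 of 30 lower and 0 higher, both of the asparagine synthetase ASN2. The genes that the study names, as 1 list, had 4 of 82 unigenes higher and 18 lower nominally, and as the study chose them on these samples they are no independent evidence of a direction. In the lists of this paragraph 0 unigenes were called by edgeR, and DESeq2 called 1 auxin and 1 heat shock unigene.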

How the data were processed

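Shoots of 2 radish inbred lines were analysed by RNA-seq with and without GA, in 4 groups of 2 libraries, assigned by the labels. The authors trimmed the reads and used Bowtie2 2.1.0 for mapping on a radish unigene set. The deposited raw counts are per unigene, none below 1. The submitters' notes also name TopHat. The deposited normalized counts, treated as a score because they were rounded after scaling, and the authors' log2 fold changes of their comparisons were not used.

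In R 4.3.3, counts were filtered with edgeR 4.0.16 (filterByExpr), which left 65934 unigenes and removed 12461, scaled with TMM and tested with the quasi-likelihood test, with 1 mean per group over all 8 libraries and Benjamini-Hochberg adjustment over all unigenes tested. The standard error is the log2 fold change divided by the root of F. Library totals in NH-JS1 and NH-JS1_GA ranged from 27627505 to 34165272. Intervals and floors cover counting error only. The script was tested on simulated data. Alternatives were DESeq2 1.42.0, RLE factors, no filter, other thresholds, summed counts, 1 subtracted, only the NH-JS1 libraries, the replicate block and each library left out.

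Named were every DEG, the 15 highest and 15 lowest called and matched unigenes whose groups did not overlap, their other unigenes, the most abundant unigene of genes the study names, the leading members of 41 gene lists and the leading unmatched unigenes. Members and lists were chosen with earlier results of these data known, and genes named outside this rule are said to have been chosen after their values were seen. No sequence is shown, since none was used here.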

Additional observations from a re-analysis of the deposited data

Results flagged for a closer look

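The difference between the GA effects of NH-JS1 and NH-JS2, tested as an interaction by edgeR, passed an adjusted p of 0.05 for 39 unigenes. Among those named here, the difference on the log2 scale, as NH-JS1 minus NH-JS2, was 9.59 for TBIU071561 and −6.75 for TBIU056732, both without an Arabidopsis match. It was 6.29 for AT3G42170 (TBIU051987), 5.08 for TBIU025189 and 5.05 for AT1G74150 (TBIU025193). It was 3.55 for AT5G12000 (TBIU025707), 3.42 for AT1G14800 (TBIU019114) and 1.87 for AT5G01320 (TBIU011131). It was also negative for AT4G03740 (TBIU018867), at −4.34, and for NRT1.7 (AT1G69870, TBIU018052), at −4.25, and 9 of the 39 were negative in all. All of these were expressed in NH-JS2_GA and NH-JS2, where they did not pass a test of GA. The cause was not tested.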

How the results depend on the processing

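The number of DEGs in NH-JS1, 2 by edgeR, was 30 with DESeq2, 17 with no count minimum, 9 at an adjusted p of 0.05, 1 with the count minimum in every library of a group, 1 with 1 subtracted from every count, 0 in a fit of the NH-JS1 libraries only and 0 with counts summed per Arabidopsis gene. It lay between 0 and 10 when 1 library was left out. The 54 unigenes past an adjusted p of 0.05 became 150 with DESeq2, 2 with summed counts, 102 at an adjusted p of 0.1 and 17 at 0.01, and 12 to 142 without 1 library, the extremes being NH-JS1 replicate 2 and NH-JS1_GA replicate 1. The 39 unigenes with a difference between the lines became 62 with DESeq2, 4 with summed counts and 22 to 56 without 1 library. None of the 54 changed direction under the alternatives run. The calls lost were 0 with RLE factors, 1 without the filter, 3 with DESeq2, 12 with 1 subtracted and 14 with the NH-JS1 libraries only, and 3 to 44 without 1 library. The cause was not tested, apart from the smaller number of libraries or unigenes in some of these fits.

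Same-numbered libraries of NH-JS1_GA and NH-JS1 did not deviate together (r = −0.02 across 63339 unigenes). Over all pairs of groups r ran from −0.09 for NH-JS1 with NH-JS2 to 0.13 for NH-JS2_GA with NH-JS2. Whether same-numbered libraries shared a harvest or batch was not tested. With the replicate number as a block, edgeR gave 1 DEG, 42 unigenes past an adjusted p of 0.05 and 37 for the difference, and 13 of the 54 lost their call.

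Some genes near 0 changed sign, none of them called. Without 1 library, the log2 fold change ran from −0.30 to 0.03 for BETAFRUCT4, −0.14 to 0.14 for FLC (TBIU004737), −0.09 to 0.35 for GI, −0.11 to 0.09 for GNC, −0.21 to 0.11 for LHY, −0.12 to 0.05 for MYB28, −0.01 to 0.12 for PIF4, −0.03 to 0.33 for SOC1 and −0.66 to 0.34 for TEM1. FLC was at 0.01 with the replicate block and 0.00 with 1 subtracted. Folds against libraries at 1 count are limited by depth and are given as bounds.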
